A study of Mus musculus with 69 samples.

Results

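The genes described here are 9 members of the fatty acid oxidation programme and known targets of the nuclear receptor PPAR alpha: Pdk4, Angptl4, Ucp3, Cpt1b, Acadm, Acadl, Hadha, Cd36 and Acot2. They were found by symbol among the 45141 probe sets of a mouse heart array series, where 14 probe sets carried 8 of the 9 symbols. Hadha had no probe set with its symbol in the annotation used here and has no value. The array held 17097 genes with a probe set of 1 symbol. Hearts came from adult male CD-1 mice, an outbred stock, of 20 to 35 g that were awake when exposed. A first set of mice received a subcutaneous dose of 8.0 mg/kg potassium cyanide (KCN) or the same volume of saline, and RNA was taken from the heart 1, 2, 4, 8 or 24 h later. Another set inhaled hydrogen cyanide (HCN) gas at 327 ppm through the nose, or air, with hearts collected at 1, 2, 4 or 24 h. There were 19 KCN, 18 saline, 16 HCN and 16 air arrays, with 4 arrays in a group except KCN 4 h, saline 2 h and saline 4 h, which held 3 each. The labels call the arrays of a group biological replicates and do not say more about the animals, so p-values measure the spread between these arrays.

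The heart draws most of its energy from the oxidation of fatty acids in mitochondria. CD36 brings fatty acids into the cell, CPT1B passes long-chain acyl groups to the carnitine shuttle, and acyl-CoA dehydrogenases such as ACADM and ACADL begin the beta-oxidation cycle that the trifunctional protein, with HADHA as a subunit, completes. PPAR alpha binds fatty acids and switches on these genes together with Pdk4, whose product shuts down pyruvate dehydrogenase and so spares glucose, Angptl4, a secreted inhibitor of lipoprotein lipase, Ucp3, a carrier of the inner mitochondrial membrane, and Acot2, a mitochondrial acyl-CoA thioesterase. Several of them, Pdk4 and Angptl4 among them, also respond to fasting and to glucocorticoids. Cyanide blocks cytochrome c oxidase, the enzyme that hands electrons to oxygen.

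Values are log2 signals, so that a difference of 1 is a factor of 2, and each gene is given by its probe set of highest mean unless another is named. Changes are cyanide minus control at the same time, with the standard error (SE) of a limma fit across all 69 arrays. "Rose" and "fell" are used of changes with a Benjamini-Hochberg adjusted p under 0.05 over the 26755 probe sets tested. The test took in 13 of the 14 member probe sets. The exception, the Angptl4 probe set 1453410_PM_at, had a mean of 2.53, below the filter at 3.23. The routes appear to have been normalized as separate sets, with median 95th percentiles of 9.24 for injection and 9.52 for inhalation arrays, so levels are not compared between them. In RNA from whole hearts, fewer cells of a type and less RNA per cell cannot be told apart.

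The hearts carried ventricular muscle markers at a summed level of 15.3 to 15.6 in every group mean, with 6 of 7 listed markers tested. Airway transcripts were present in some arrays and near the filter in others. Scgb1a1, a club cell protein, had group means from 2.71 to 11.6. The summed level of 3 adipocyte markers (Adipoq, Lep and Retn, of 6 listed) had means of 9.42 to 9.92 in the KCN groups, against 7.33 to 7.86 in the saline groups, while 0 of the 3 were called in any cyanide comparison. Of the brown adipocyte markers, Ucp1 had group means from 4.24 to 9.57 and Cidea from 8.66 to 10.3. The median change of the 3 tested (with Cox7a1) was 0.45 to 0.97 after KCN and -0.43 to 0.003 after HCN. Again 0 of the 3 were called in any cyanide comparison, and their part in the member changes was not tested. A measure of RNA integrity came from the actin control probe sets, as the 3′ signal minus the 5′ signal on the log2 scale, called the actin ratio here. HCN 2 h hearts averaged 1.22 ± 0.61, against 0.45 ± 0.14 in air hearts (SD), and HCN 24 h hearts 0.98 ± 0.25, against 0.39 ± 0.04 in air hearts. KCN 24 h hearts averaged 0.47 ± 0.13, against 0.88 ± 0.09 in saline hearts, and KCN 1 h hearts 0.48 ± 0.08, against 0.84 ± 0.17 in saline hearts. HCN 4 h hearts had 0.41 ± 0.04 and air 4 h hearts 0.40 ± 0.04.

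Pdk4, Angptl4 and Ucp3 rose 4 h after HCN, and no other of the 9 comparisons of cyanide with its control held as many called members. The dehydrogenases Acadm and Acadl and the transporter Cd36 spanned 1.12-fold to 1.23-fold between their lowest and highest group means within a route, while Angptl4 spanned 4.51-fold over the inhalation groups and 4.16-fold over the injection groups. After HCN, 1 of 8 members was called at 1 h (Acadl, lower), where 2.68% of all tested probe sets were called. At 2 h it was 1 of 8 (Pdk4, higher; 25.3% of all), at 4 h 3 of 8, all higher (7.35% of all), and at 24 h 1 of 8 (Cpt1b, lower; 14.3% of all). After KCN, 0 of 8 were called at 1 h (4.09% of all), 2 h (6.59% of all) and 4 h (2.26% of all), 1 of 8 at 8 h (Acadm, lower; 0.336% of all) and 2 of 8 at 24 h (Angptl4 and Cpt1b, higher; 11.9% of all). At an unadjusted p under 0.05 limma gave 1 of 8 at KCN 1 h (Acadl; 18% of all), 0 at 2 h (20.0% of all) and 1 at 4 h (Angptl4; 16.4% of all), shares no higher than the background. The median change of the 8 members was 0.08 at HCN 4 h, against -0.03 over all tested probe sets, and 0.30 at KCN 24 h, against 0.01.

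**Figure D1:**
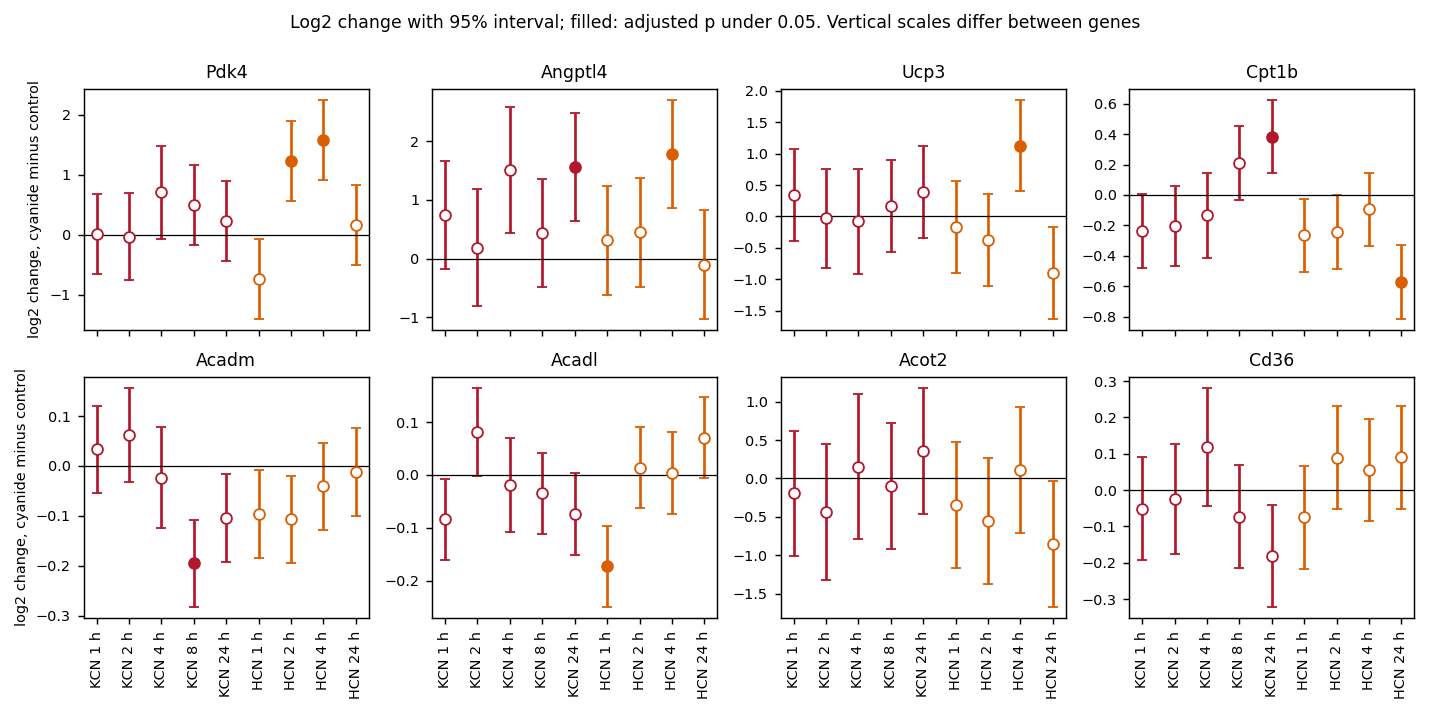
Log2 change of each of the 8 measured members, cyanide minus control, in the 5 KCN and 4 HCN comparisons, with the 95% interval of the limma fit; filled points have an adjusted p under 0.05. Pdk4, Angptl4 and Ucp3 have filled points above 0 at HCN 4 h, and Cpt1b has filled points on opposite sides of 0 at 24 h, above after KCN and below after HCN.

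Pdk4, the pyruvate dehydrogenase kinase, was higher after HCN than in air at 2 and 4 h. At 4 h its log2 signal was 11.91, 12.16, 12.07 and 11.85 in HCN hearts, against 9.77, 10.27, 10.71 and 10.93 in air hearts. Every HCN heart lay above every air heart. The change was 1.58 ± 0.33 (SE; adjusted p = 0.00101), or 2.99-fold. At 2 h it was 11.88, 11.44, 12.32 and 11.13 in HCN hearts, against 10.25, 10.91, 10.35 and 10.37 in air hearts. Again no HCN heart lay within the range of the air hearts, and the change was 1.22 ± 0.33 (adjusted p = 0.00465), or 2.33-fold. It was 1.26 (adjusted p = 0.0367) without the 2 HCN 2 h hearts of highest actin ratio and 1.30 (adjusted p = 0.0366) with the actin ratio as a covariate.

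At 1 h Pdk4 stood the other way without passing the test. It was 10.26, 12.02, 10.56 and 10.29 in HCN hearts, against 10.75, 12.28, 11.92 and 11.12 in air hearts. HCN replicate 2 was far above the other HCN hearts, and replicate 2 was also the highest of the air hearts. The difference was -0.74 ± 0.33 (adjusted p = 0.28), and -1.15 (adjusted p = 0.0474) without HCN 1 h replicate 2. By 24 h the groups overlapped, with 10.20 ± 0.34 in HCN hearts and 10.04 ± 0.41 in air hearts (SD, n = 4 each). The HCN effect on Pdk4 differed between the 4 times (F test, adjusted p = 0.000497), which 27.3% of all tested probe sets also did.

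After KCN no Pdk4 change passed the test. Its means at 1, 2, 4, 8 and 24 h were 10.98, 10.82, 10.86, 9.73 and 9.58 in KCN hearts, against 10.97, 10.86, 10.15, 9.24 and 9.35 in saline hearts. At 8 h the 4 KCN hearts, at 9.82, 9.69, 9.69 and 9.73, all lay above the saline hearts, at 9.66, 8.47, 9.26 and 9.59, and the change was 0.49 ± 0.33 (adjusted p = 0.603). At 4 h it was 0.70 ± 0.39 (n = 3 each; adjusted p = 0.36), with groups that overlapped.

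Angptl4, which restrains lipoprotein lipase outside the cell, rose after HCN at 4 h. It was 8.91, 9.30, 8.78 and 9.38 in HCN hearts, against 8.01, 7.47, 6.77 and 6.996 in air hearts. The groups did not overlap, and the change was 1.78 ± 0.46 (adjusted p = 0.00913), or 3.44-fold. The code of this probe set, the only Angptl4 probe set tested, marks it as one that can match several transcripts. The summed adipocyte markers were 9.96 ± 1.30 in those HCN hearts and 10.84 ± 0.32 in the air hearts (SD, n = 4 each). With the mean log2 signal of these markers, in place of their sum, as a covariate the change was 2.07 (adjusted p = 0.000894). The macrophage sum was higher without overlap, at 10.53 ± 0.06 in the HCN hearts and 10.30 ± 0.12 in the air hearts. Of 6 macrophage markers 1 was called higher, and their part in the Angptl4 change was not tested. At HCN 1, 2 and 24 h the changes were 0.31 ± 0.46, 0.44 ± 0.46 and -0.10 ± 0.46, and none passed.

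After KCN Angptl4 rose at 24 h. It was 7.12, 6.92, 6.03 and 7.37 in KCN hearts, against 4.31, 5.21, 5.18 and 6.49 in saline hearts. The ranges overlapped through 1 KCN heart that lay below the highest saline heart, and the change was 1.56 ± 0.46 (adjusted p = 0.0185), or 2.95-fold. The call was lost without saline 24 h replicate 1 (1.23, adjusted p = 0.122), KCN 24 h replicate 1 (1.48, adjusted p = 0.0579) or KCN 24 h replicate 4 (1.39, adjusted p = 0.0651). The adipocyte markers stood higher too, at 9.62 ± 1.06 in KCN hearts and 7.62 ± 1.46 in saline hearts (SD, n = 4 each). Macrophage markers were higher as well, with 3 of 6 called and a summed level of 9.91 ± 0.12 in KCN hearts and 9.46 ± 0.12 in saline hearts, and their part in the Angptl4 change was not tested. With the mean log2 signal of the adipocyte markers as a covariate the change was 1.06 (adjusted p = 0.116). With the actin ratio it was 1.47 (adjusted p = 0.051). At KCN 4 h it was 5.70, 7.90 and 6.49 in KCN hearts, against 4.44, 6.43 and 4.70 in saline hearts. That difference, 1.51 ± 0.53, was close to that at 24 h in size but did not pass (adjusted p = 0.117), and it was 0.91 without KCN 4 h replicate 2 and 2.13 without saline 4 h replicate 2.

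Ucp3, the mitochondrial carrier, rose after HCN at 4 h on both of its probe sets. It was 5.87, 7.67, 6.59 and 6.99 in HCN hearts, against 5.49, 5.78, 5.87 and 5.46 in air hearts. HCN replicate 1 lay at the level of the highest air heart and the other HCN hearts lay above all of them. The change was 1.13 ± 0.36 (adjusted p = 0.0444), or 2.19-fold. On probe set 1420657_PM_at it was 1.69 ± 0.55 (adjusted p = 0.0455). The call was lost in 7 of 8 fits that left out 1 array, with adjusted p of up to 0.212, and in 4 of 14 other alternatives: the inhalation arrays fitted alone (adjusted p = 0.151), only the groups compared (0.0679), no filter (0.0616) and the adipocyte markers as a covariate (1.04, adjusted p = 0.0777). The fits with 1 array left out that lost it were those without any 1 of the 4 air hearts (changes of 1.07 to 1.20) or without HCN replicate 2, 3 or 4 (0.83, 1.19 and 1.06).

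At 24 h after HCN, Ucp3 stood lower, at 5.21, 4.72, 4.99 and 5.40 in HCN hearts, against 5.43, 5.87, 6.43 and 6.19 in air hearts. The groups did not overlap, but the change of -0.90 ± 0.36 did not pass (adjusted p = 0.0882). The actin ratio was higher in these HCN hearts, and with it as a covariate the change was -0.21. Probe set 1420657_PM_at had -0.22 ± 0.55 there. The HCN effect on Ucp3 differed between times (F test, adjusted p = 0.0124), a call that was lost without HCN 4 h replicate 2 (adjusted p = 0.055), with the inhalation arrays fitted alone (adjusted p = 0.0838) and with the actin ratio as a covariate (adjusted p = 0.0563). After KCN its changes ran from -0.08 ± 0.42 at 4 h to 0.39 ± 0.36 at 24 h, with 0 of 5 called.

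**Figure D2:**
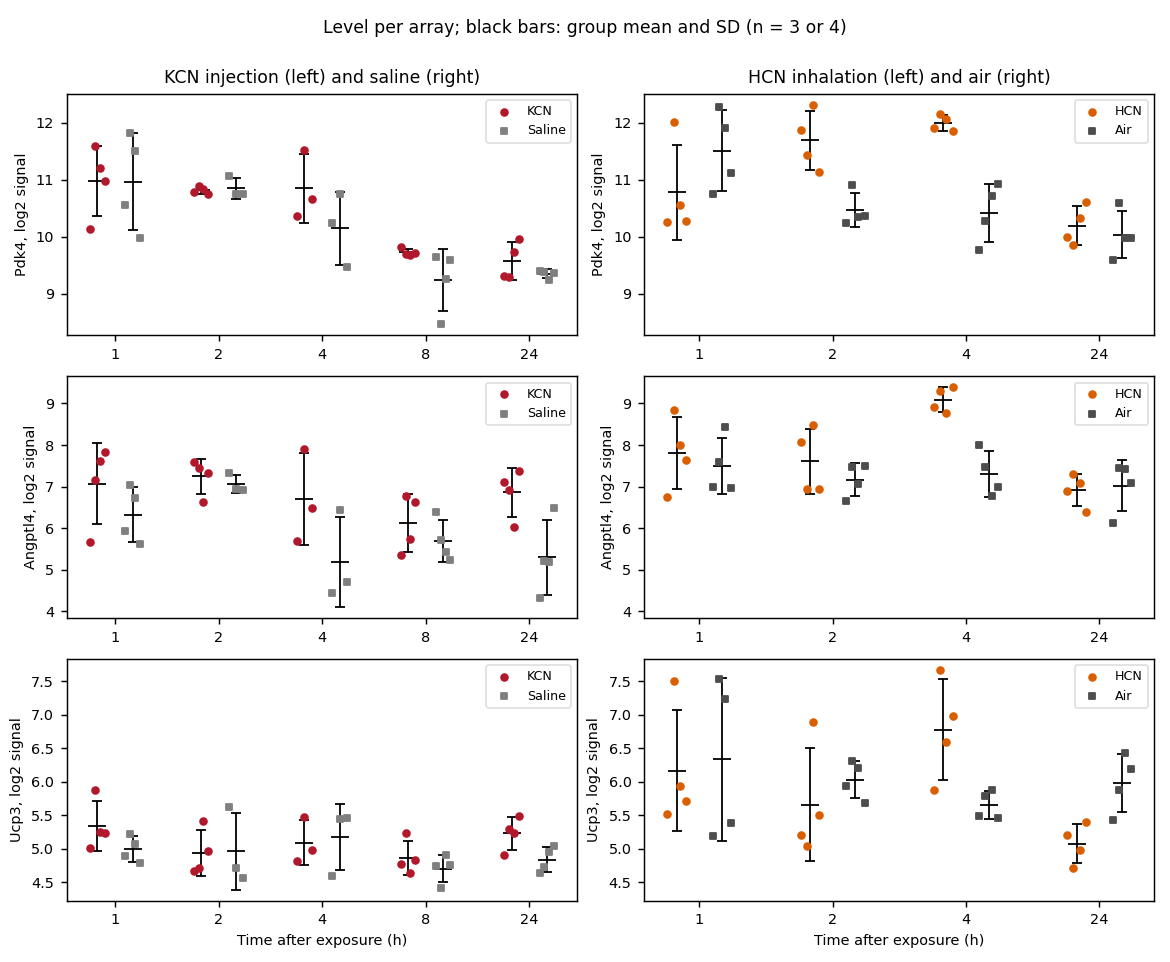
Log2 signal of Pdk4, Angptl4 and Ucp3 on every array by time after exposure (h), with KCN left of saline in the left column and HCN left of air in the right column; black bars are the group mean and SD. The HCN 4 h hearts stand above the air 4 h hearts for Pdk4 and Angptl4, and the Pdk4 means at 8 and 24 h are 9.73 and 9.58 in KCN hearts and 9.24 and 9.35 in saline hearts, below those at 1 h.

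The promoters of the members were read from RefSeq (GRCm38.p6), where 7 of the 9 had a window of 250 bases before to 50 after the start of transcription. Each window was searched on both strands for AGGTCA, the core letters that nuclear receptors such as PPAR alpha bind, for 2 of these in direct repeat with 1 base between them (the PPAR response element), for the forkhead letters TGTTTAC, for AGAACA and TGTTCT with 3 bases between them (the glucocorticoid response element) and for the E-box CACGTG. Shown are the windows of Pdk4 and Ucp3, which rose together at HCN 4 h, and of the enzyme gene Acadm for contrast, 5′ to 3′ along the gene, with AGGTCA or its complement in capitals. Pdk4 and Acadm lie on the minus strand and Ucp3 on the plus strand.
Pdk4, chr6:5496229-5496528: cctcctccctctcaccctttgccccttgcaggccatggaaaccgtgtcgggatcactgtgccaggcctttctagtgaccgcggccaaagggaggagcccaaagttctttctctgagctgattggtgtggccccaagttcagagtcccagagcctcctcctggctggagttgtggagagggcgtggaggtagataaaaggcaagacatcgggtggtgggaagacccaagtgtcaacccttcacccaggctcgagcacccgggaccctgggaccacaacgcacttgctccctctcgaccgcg
Ucp3, chr7:100472741-100473040: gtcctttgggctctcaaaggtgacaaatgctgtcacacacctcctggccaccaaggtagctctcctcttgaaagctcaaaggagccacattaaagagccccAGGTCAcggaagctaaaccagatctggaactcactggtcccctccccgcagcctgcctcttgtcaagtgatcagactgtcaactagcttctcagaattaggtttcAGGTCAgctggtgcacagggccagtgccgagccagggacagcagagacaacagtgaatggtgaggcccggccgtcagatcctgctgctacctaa
Acadm, chr3:153944594-153944893: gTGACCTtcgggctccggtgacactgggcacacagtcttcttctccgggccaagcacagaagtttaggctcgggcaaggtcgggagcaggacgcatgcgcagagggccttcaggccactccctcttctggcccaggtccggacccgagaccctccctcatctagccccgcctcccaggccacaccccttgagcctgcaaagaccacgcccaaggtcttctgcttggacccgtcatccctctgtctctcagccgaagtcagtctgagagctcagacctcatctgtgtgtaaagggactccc
AGGTCA stood once in the Acadm window, on the opposite strand at -249 to -244 from the start, once in that of Cd36 at -228 to -223, also on the opposite strand, and in 2 places of that of Ucp3, at -149 to -144 and -44 to -39. It was in 16.3% of the 32851 promoter windows of the table. The Pdk4, Acadl, Acot2 and Hadha windows held none of the motifs searched. None of the member windows held a PPAR response element (0.0396% of all windows), TGTTTAC (3.65%), a glucocorticoid response element (0.00913%) or CACGTG (7.15%), which says only that these letters are not in these stretches.

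Cpt1b, the muscle form of the enzyme that commits long-chain fatty acids to oxidation, moved in opposite directions by route at 24 h. It fell after HCN, with 10.04, 9.90, 10.05 and 10.29 in HCN hearts, against 10.70, 10.53, 10.75 and 10.59 in air hearts. The groups did not overlap, and the change was -0.57 ± 0.12 (adjusted p = 0.000446), or 0.673-fold. It rose after KCN, with 10.06, 9.96, 10.19 and 10.08 in KCN hearts, against 9.48, 9.72, 9.80 and 9.75 in saline hearts. Here too the groups did not overlap, and the change was 0.38 ± 0.12 (adjusted p = 0.0276), or 1.30-fold. In both comparisons the group with the lower Cpt1b had the higher actin ratio. With that ratio as a covariate the changes were -0.35 (adjusted p = 0.146) after HCN and 0.23 (adjusted p = 0.231) after KCN, so neither passed. The KCN call was also lost when replicate 1, 3 or 4 of the KCN hearts (0.39, 0.35 and 0.38) or replicate 1 of the saline hearts (0.32) was left out, with adjusted p up to 0.136, and the HCN call was kept without any 1 array.

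At the other times no Cpt1b change passed. After HCN it was -0.27 ± 0.12 at 1 h, -0.24 ± 0.12 at 2 h and -0.09 ± 0.12 at 4 h. The 2 h difference passed without air 2 h replicate 4 (-0.37, adjusted p = 0.0232) or without HCN 2 h replicate 3 (-0.36, adjusted p = 0.0277), and was -0.12 without HCN 2 h replicate 2. With the actin ratio in the model it was 0.04. The KCN changes at 1, 2, 4 and 8 h were -0.24 ± 0.12, -0.20 ± 0.13, -0.13 ± 0.14 and 0.21 ± 0.12. Over all 5 times, the called change at 24 h included, the KCN effect differed between times (F test, adjusted p = 0.0162), as did that on Acadm (adjusted p = 0.0106), the 2 of 8 members for which it did, against 16.4% of all tested probe sets. After HCN the effect differed between times for 3 of 8 members, Pdk4, Ucp3 and Acadl (adjusted p = 0.00284), against 27.3% of all tested probe sets. The Acadm call was lost without the trend or with the injection arrays fitted alone (adjusted p = 0.0617 and 0.0749), and the Acadl call with the median over its probe sets (adjusted p = 0.233). The Cd36 probe set 1450884_PM_at also had an HCN effect that differed between times (adjusted p = 0.0069).

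Acadm, the medium-chain acyl-CoA dehydrogenase, fell slightly 8 h after KCN. It was 12.22, 12.31, 12.44 and 12.35 in KCN hearts, against 12.63, 12.61, 12.46 and 12.40 in saline hearts. The groups overlapped at their edges, and the change was -0.20 ± 0.04 (adjusted p = 0.0291), or 0.873-fold. It lost its call when replicate 1 or 2 of the KCN hearts (-0.16 and -0.19) or of the saline hearts (-0.16 and -0.17) was left out, with adjusted p up to 0.192, with quantile normalization (adjusted p = 0.0542), without the trend (0.0919), and with the injection arrays (0.135) or only the groups compared (0.742) in the fit. After HCN its changes were -0.10 ± 0.04, -0.11 ± 0.04, -0.04 ± 0.04 and -0.01 ± 0.04 at 1, 2, 4 and 24 h, with 0 of 4 called, though all HCN hearts lay below all air hearts at 1 and 2 h.

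Acadl, the long-chain acyl-CoA dehydrogenase, fell 1 h after HCN. It was 12.33, 12.42, 12.45 and 12.34 in HCN hearts, against 12.56, 12.54, 12.65 and 12.48 in air hearts. The groups did not overlap, and the change was -0.17 ± 0.04 (adjusted p = 0.00368), or 0.887-fold. The call was lost with only the groups compared in the fit (adjusted p = 0.133), and the median over the Acadl probe sets gave 0.002 (adjusted p = 0.995). The summed ventricular markers were also lower without overlap, at 15.48 ± 0.01 in those HCN hearts and 15.55 ± 0.01 in the air hearts (SD). Of the 6 markers tested 0 were called, and their part in the Acadl change was not tested. At 2, 4 and 24 h after HCN the changes were 0.01 ± 0.04, 0.00 ± 0.04 and 0.07 ± 0.04. Another, dim probe set, 1448988_PM_at, near the filter with a mean of 3.29, stood at 3.62, 3.98, 3.57 and 3.44 in HCN 2 h hearts, against 3.31, 3.46, 3.09 and 3.41 in air hearts, a change of 0.33 ± 0.13 (adjusted p = 0.0486) that the bright probe set did not show.

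Acot2, the thioesterase, was not called on its brighter probe set, whose code marks it as one that can match several transcripts, so that signal of the near-identical Acot1 cannot be separated there. On that probe set the change was -0.86 ± 0.41 at HCN 24 h, with 6.87, 6.61, 7.06 and 7.59 in HCN hearts, against 7.70, 8.18, 8.02 and 7.67 in air hearts (adjusted p = 0.162). At HCN 2 h it was -0.56 ± 0.41, and -1.08 (adjusted p = 0.0416) without HCN 2 h replicate 3. The other probe set, 1422996_PM_at, fell at HCN 24 h by 1.37 ± 0.38 on the log2 scale (adjusted p = 0.00923). There it was 5.18, 5.23, 5.72 and 6.05 in HCN hearts, against 6.80, 7.10, 6.98 and 6.80 in air hearts, without overlap. It also fell at HCN 2 h, by 1.15 ± 0.38 (adjusted p = 0.0214), with 4.85, 4.46, 7.53 and 6.21 in HCN hearts, against 6.67, 7.01, 7.24 and 6.73 in air hearts. A single HCN heart, replicate 3, was above all air hearts and the others below them. Both falls were at times with a higher actin ratio in the HCN hearts, whose part in them was not tested for this probe set.

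Cd36, the fatty acid transporter, had no called change on its brightest probe set, where the changes ran from -0.18 ± 0.07 at KCN 24 h (adjusted p = 0.0812) to 0.12 ± 0.08 at KCN 4 h. At KCN 24 h it was 11.67, 11.82, 11.80 and 11.94 in KCN hearts, against 12.02, 12.03, 11.92 and 11.99 in saline hearts. That difference, with its small overlap, passed without KCN 24 h replicate 4 (-0.23, adjusted p = 0.0428) and with the actin ratio as a covariate (-0.24, adjusted p = 0.026). Its probe set 1450884_PM_at fell at KCN 24 h by 0.30 ± 0.09 (adjusted p = 0.0183) and at HCN 1 h by 0.30 ± 0.09 (adjusted p = 0.0478). At KCN 24 h it was 9.81, 9.78, 9.89 and 9.85 in KCN hearts, against 10.09, 10.10, 10.18 and 10.17 in saline hearts, with no overlap. Probe set 1450883_PM_a_at was not called in any cyanide comparison, with changes from -0.20 ± 0.08 at HCN 24 h to 0.04 ± 0.08 at KCN 8 h.

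**Figure D3:**
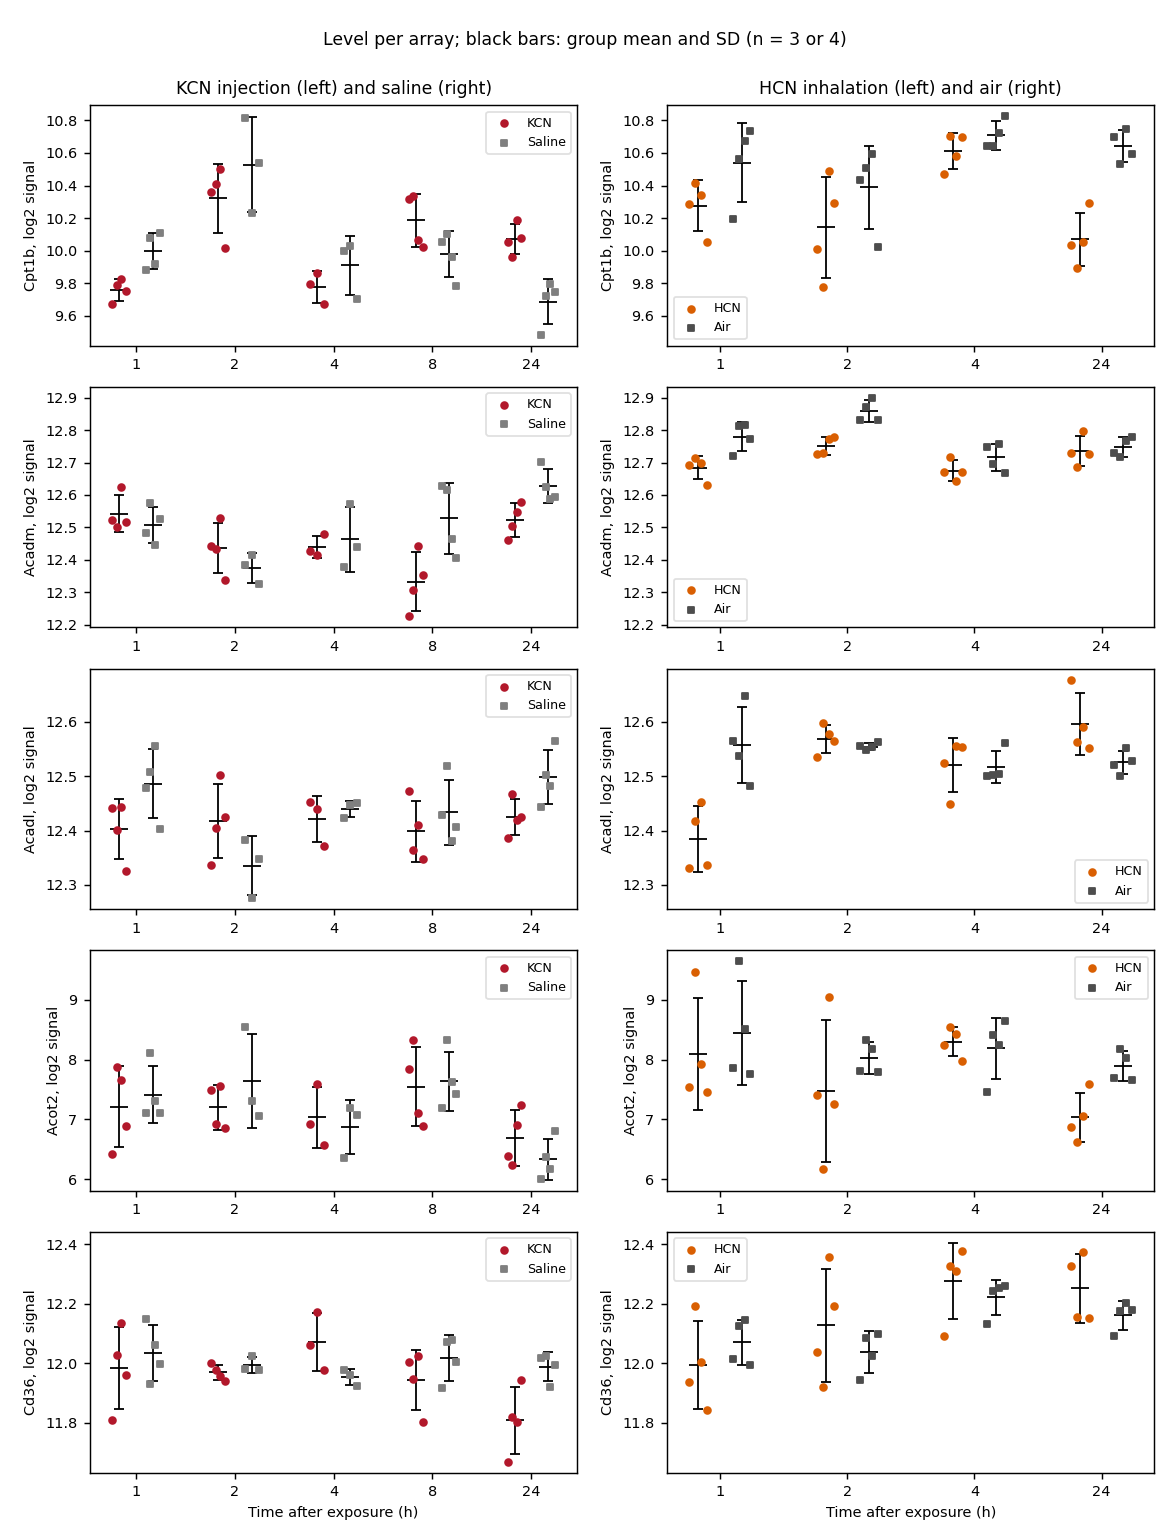
Log2 signal of Cpt1b, Acadm, Acadl, Acot2 and Cd36 on every array by time after exposure (h), with KCN left of saline and HCN left of air; black bars are the group mean and SD, and vertical scales differ between genes. Cpt1b is separated between the groups at 24 h in both columns, lower in HCN than in air and higher in KCN than in saline.

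The difference between the routes, the HCN change minus the KCN change at the same time, was tested at the 4 shared times. Agent, dose, control and normalization set differ with the route and cannot be told apart. No member was called at 1 h (0.198% of all tested probe sets), 2 h (5.74%) or 4 h (1.87%), and 2 of 8 were at 24 h (18.8%). At an unadjusted p under 0.05 limma gave 1 of 8 at 1 h (8.71% of all), 2 of 8 at 2 h (21.3%) and 1 of 8 at 4 h (16.5%), near the background. Of the 2 members called at 24 h, Cpt1b had the larger difference, -0.96 ± 0.17 (adjusted p = 3.56e-05), kept without any 1 array but -0.58 (adjusted p = 0.08) with the actin ratio as a covariate. For Acot2 the difference at 24 h was -1.22 ± 0.58 (adjusted p = 0.138) on its brighter probe set and -1.56 ± 0.54 (adjusted p = 0.0351) on 1422996_PM_at. The actin ratio moved in opposite directions by route at that time, and its part in the Acot2 difference was not tested on 1422996_PM_at. Cd36 had a difference of 0.27 ± 0.10 (adjusted p = 0.0467), which ran from 0.22 to 0.32 when 1 array was left out and was kept without saline replicate 3, KCN replicate 4 or HCN replicate 2 or 4 but lost without any of the other 12 arrays (adjusted p up to 0.128). Its other probe sets disagreed, with 0.53 ± 0.13 (adjusted p = 0.00153) on 1450884_PM_at and -0.04 ± 0.11 on 1450883_PM_a_at. Pdk4, called after HCN and not after KCN, did not pass at 2 h (1.26 ± 0.49, 95% interval 0.27 to 2.24, adjusted p = 0.116) or at 4 h (0.88 ± 0.51, interval -0.14 to 1.90, adjusted p = 0.397). For Angptl4 the difference was 0.27 ± 0.71 at 4 h (interval -1.15 to 1.69) and -1.67 ± 0.65 at 24 h (adjusted p = 0.0655), and for Ucp3 it was 1.21 ± 0.56 at 4 h (interval 0.09 to 2.32, adjusted p = 0.258). The Angptl4 difference at 24 h passed without saline 24 h replicate 4 (-2.06), KCN 24 h replicate 3 (-1.94) or air 24 h replicate 1 (-1.96). The Ucp3 difference at 24 h, -1.29 ± 0.52 (adjusted p = 0.0704), passed without air 24 h replicate 1 (-1.47) and was -0.13 with the actin ratio as a covariate. Acadl stood at 0.15 ± 0.05 (adjusted p = 0.0531) and passed without saline 24 h replicate 1, KCN 24 h replicate 2 or HCN 24 h replicate 4 (0.16 in each).

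The control hearts changed over time too, which sets the level against which each cyanide group is read. In saline hearts 6 of 8 members differed between the 5 times (F test; 38.4% of all tested probe sets did), all but Ucp3 and Cd36, though the Cd36 probe set 1450884_PM_at was called (adjusted p = 0.0075). The call was lost for Acadl with median centring, without the trend, with only the saline groups fitted or with the median over its probe sets (adjusted p = 0.0869, 0.0819, 0.104 and 0.741) and without saline 2 h replicate 2 (adjusted p = 0.104). It was lost for Acot2 with the median over its probe sets (adjusted p = 0.0551), with the actin ratio as a covariate (adjusted p = 0.193), and without saline 2 h replicate 1, 8 h replicate 2 or 24 h replicate 1, 2 or 3 (adjusted p of 0.0555 to 0.103). In air hearts 1 of 8 did, Pdk4 (adjusted p = 0.00586; 16.8% of all tested probe sets), and that call was lost without air 1 h replicate 2 (adjusted p = 0.0649). The Cd36 probe set 1450883_PM_a_at was called in air hearts too (adjusted p = 0.00972) and was higher at 4 h than at 1 h by 0.33 ± 0.08 (adjusted p = 0.00342). Pdk4 fell with time by both routes. In air hearts its means at 1, 2, 4 and 24 h were 11.52 ± 0.70, 10.47 ± 0.30, 10.42 ± 0.51 and 10.04 ± 0.41 (SD, n = 4 each). Against 1 h, the difference was -1.10 ± 0.33 at 4 h (adjusted p = 0.028; 1 of 8 members, 8.82% of all) and -1.48 ± 0.33 at 24 h (adjusted p = 0.00137; 1 of 8, 14.7% of all). At 2 h the difference was of like size, -1.05 ± 0.33, but did not pass (adjusted p = 0.148; 0 of 8, 0.460% of all), with 1 of 8 at an unadjusted p under 0.05 by limma (12.1% of all).

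In saline hearts the Pdk4 means at 1, 2, 4, 8 and 24 h were 10.97 ± 0.85, 10.86 ± 0.18, 10.15 ± 0.64, 9.24 ± 0.54 and 9.35 ± 0.08 (SD). The neighbouring times 1 and 2 h, and 8 and 24 h, lay within each other's spread. Against 1 h, Pdk4 was -1.72 ± 0.33 at 8 h (adjusted p = 0.0005; the only member of 8 called, 8.94% of all) and -1.62 ± 0.33 at 24 h (adjusted p = 0.000786; also the only one, 8.92% of all). At 4 h none of the 8 was called (3.44% of all), with 2 of 8 at an unadjusted p under 0.05 by limma (16.2% of all). The Cd36 probe set 1450884_PM_at was lower there (-0.38 ± 0.10, adjusted p = 0.0142). At 2 h 3 of 8 were (18.2% of all). Cpt1b rose by 0.53 ± 0.13 (adjusted p = 0.00239), with 10.81, 10.23 and 10.54 at 2 h against 9.88, 10.08, 9.92 and 10.11 at 1 h. In the same comparison 3 of 6 macrophage, 2 of 5 endothelial and 1 of 4 tested fibroblast markers were higher at 2 h. So were 1 of 3 tested brown adipocyte and 1 of 6 tested ventricular muscle markers. The macrophage sum was 10.26 ± 0.24 at 2 h and 9.77 ± 0.23 at 1 h. The ventricular sum was 15.43 ± 0.03 at 2 h and 15.35 ± 0.02 at 1 h, without overlap. The part of these markers in the member changes was not tested. Acadl and Acadm fell by 0.15 ± 0.04 and 0.13 ± 0.05 (adjusted p = 0.00668 and 0.0381). The actin ratio of the saline groups was 0.84, 0.42, 0.86, 0.45 and 0.88 at 1, 2, 4, 8 and 24 h, and Cpt1b was at 9.997, 10.53, 9.91, 9.98 and 9.69. With the ratio as a covariate the F test for Cpt1b gave an adjusted p of 0.000426.

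The courses of cyanide and control hearts stood as follows. The Pdk4 mean of HCN hearts was 10.78, 11.69, 12.00 and 10.20 at 1, 2, 4 and 24 h, against 11.52, 10.47, 10.42 and 10.04 in air hearts. It was highest at 4 h in HCN hearts and at 1 h in air hearts. Angptl4 was at 7.81, 7.61, 9.09 and 6.92 in HCN hearts, against 7.497, 7.17, 7.31 and 7.02 in air hearts, so that the HCN 4 h mean stood above those of the other 7 groups. The highest HCN 1 h heart, at 8.84, lay above the lowest HCN 4 h heart, at 8.78. The HCN effect on Angptl4 was not called as differing between times (F test). In the injection arm Angptl4 was at 7.07, 7.25, 6.70, 6.13 and 6.86 in KCN hearts, against 6.33, 7.06, 5.19, 5.69 and 5.30 in saline hearts, higher in KCN at each of the 5 times by 0.18 to 1.56, with 1 of 5 differences called.

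Other genes of the pathway, regulators and 10 glucocorticoid-responsive genes were followed in lists, 77 tested genes in all, each by its probe set of highest mean. At HCN 4 h 16 of the 77 rose and 0 fell, with a median change of 0.05, and 9 of the 16 were in the glucocorticoid list. Of all tested probe sets 768 rose and 1199 fell there (7.35% called), with a median of -0.03. Of 10 glucocorticoid-responsive genes 9 rose (median 1.11), among them Zbtb16 by 2.67 ± 0.31, Fkbp5, a co-chaperone of the receptor, by 1.76 ± 0.29, and Cebpd by 1.56 ± 0.22. Because the lists were drawn up with earlier results of these data known, their counts are descriptions. They do not test for a glucocorticoid response, and what raised the listed genes was not tested. These 10 genes also changed in the control hearts: 8 were lower in air hearts at 4 h than at 1 h (median -1.03), and 9 were lower in saline hearts at 24 h than at 1 h (median -1.49), so the air level at 4 h that the HCN hearts are set against lay below that at 1 h. Of 14 regulators 3 rose, led by Klf15, a glucocorticoid-induced factor known to control fuel use in the heart, by 1.18 ± 0.20, with Hif1a, a subunit of the hypoxia-inducible factor, by 0.41 ± 0.11 and Nrip1, a corepressor of nuclear receptors, by 0.46 ± 0.13. In uptake and storage Plin4, a lipid droplet coat protein, rose by 0.73 ± 0.15 and Gpihbp1, which anchors lipoprotein lipase to capillaries, by 0.62 ± 0.14, 2 of 14 genes. Cpt1a, the liver form of the carnitine transferase, rose by 0.58 ± 0.19, 1 of 7 in the carnitine list, and Txnip, a brake on glucose uptake, by 1.30 ± 0.21, 1 of 6 among other PPAR targets. None of the 12 beta-oxidation enzymes, 6 peroxisomal genes or 8 genes of pyruvate dehydrogenase control was called.

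At HCN 2 h 10 of the 77 rose and 10 fell, against 25.3% called over all tested probe sets. Of the 10 glucocorticoid-responsive genes 6 rose and 0 fell, led by Cebpd (1.78 ± 0.22), Sgk1 (1.66 ± 0.21) and Ddit4 (1.83 ± 0.27). Of the 12 beta-oxidation enzymes 5 fell and 1 rose. The falls were of Echs1, the enoyl-CoA hydratase (-0.57 ± 0.10), Acads, the short-chain dehydrogenase (-0.55 ± 0.12), Acad9 (-0.43 ± 0.12), Eci1 (-0.23 ± 0.07) and Etfdh, which was chosen after its value was seen (-0.19 ± 0.07), and the rise was of Hadh (0.20 ± 0.06). Esrra, a nuclear receptor that drives oxidative genes, fell by 0.72 ± 0.14, and Mlycd, the malonyl-CoA decarboxylase, by 0.58 ± 0.19. In this comparison 2354 of all tested probe sets rose and 4410 fell, and the actin ratio was high in the HCN hearts; its part in the list counts was not tested.

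At HCN 1 h 3 of the 77 rose and 7 fell, with 369 of all tested probe sets higher and 349 lower (2.68% called). Ppara, which encodes PPAR alpha, fell by 0.73 ± 0.20 and Klf15 by 0.84 ± 0.20, 2 of 14 regulators. Acacb, whose product makes the malonyl-CoA that inhibits CPT1, fell by 0.69 ± 0.13 and Plin4 by 0.55 ± 0.15. Of the glucocorticoid-responsive genes Dusp1 and Sgk1 rose (1.93 ± 0.24 and 1.36 ± 0.21) while Zbtb16 and Fkbp5 fell (-1.42 ± 0.31 and -1.10 ± 0.29), so Zbtb16, Fkbp5, Klf15 and Plin4 were called lower than in air at 1 h and higher at 4 h. At HCN 24 h 5 rose and 4 fell, a share below the 14.3% of all tested probe sets. Ppara fell by 0.91 ± 0.20, Echs1 and Acads by 0.38 ± 0.10 and 0.38 ± 0.12, and Lipe, a hormone-sensitive lipase, by 1.03 ± 0.32, while Plin5, the droplet protein of oxidative tissues, rose by 0.49 ± 0.12. The other 4 rises were of Slc25a20, the carnitine-acylcarnitine carrier (0.28 ± 0.09), Acaa1b, a peroxisomal thiolase (0.81 ± 0.28), Pdp2, a pyruvate dehydrogenase phosphatase (0.64 ± 0.22), and Foxo3, a forkhead factor (0.46 ± 0.15).

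After KCN the lists held most calls at 24 h, with 13 of 77 higher and 4 lower, where 11.9% of all tested probe sets were called, also the highest share among the KCN comparisons. In uptake and storage 5 of 14 rose and 1 fell: Lipe (1.85 ± 0.32), Dgat1 (0.74 ± 0.14), Mgll (0.37 ± 0.09), Dgat2 (0.53 ± 0.14) and Fabp4 (0.30 ± 0.08) were higher, and Vldlr, chosen after its value was seen, was lower (-0.48 ± 0.15). Lipe and Fabp4 are also abundant in adipocytes, whose markers stood higher in these KCN hearts, as given above. In the carnitine list Crat (0.63 ± 0.12), Acacb (0.54 ± 0.13) and Cpt2 (0.40 ± 0.10) rose, 3 of 7. Acads (0.59 ± 0.12) and Echs1 (0.30 ± 0.10) rose, 2 of 12 beta-oxidation enzymes, both genes that fell at HCN 24 h, as Cpt1b did. At that time KCN hearts had a lower actin ratio than saline hearts and HCN hearts a higher one than air hearts, and its part in these list genes was not tested. Pdk2, the pyruvate dehydrogenase kinase of most tissues, rose by 1.30 ± 0.34, while 1 of the 8 genes of pyruvate dehydrogenase control fell. Of 14 regulators 1 rose and 2 fell, and 1 of 6 peroxisomal genes rose.

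At KCN 1 h 1 of 77 rose and 6 fell (4.09% of all tested probe sets called), with Acacb (-0.61 ± 0.13), Plin4 (-0.52 ± 0.15) and 4 of 14 regulators lower, and Txnip higher (0.93 ± 0.21). Airway transcripts were higher in those KCN hearts, with a summed level of 12.5 ± 0.33 against 4.92 ± 0.05 in saline hearts (SD, n = 4 each). At KCN 2 h 10 rose and 1 fell (6.59% of all), 5 of the 10 in the glucocorticoid list, led by Ddit4 (1.42 ± 0.29) and Cebpd (1.04 ± 0.24), with no member of the fatty acid set called at that time. At KCN 4 h none of the 77 was called (2.26% of all), and at 8 h 2 fell (0.336% of all): Lpl, the lipase that ANGPTL4 inhibits, by 0.17 ± 0.04, and Pdha1, the pyruvate dehydrogenase subunit that PDK4 phosphorylates, by 0.18 ± 0.04.

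**Figure D4:**
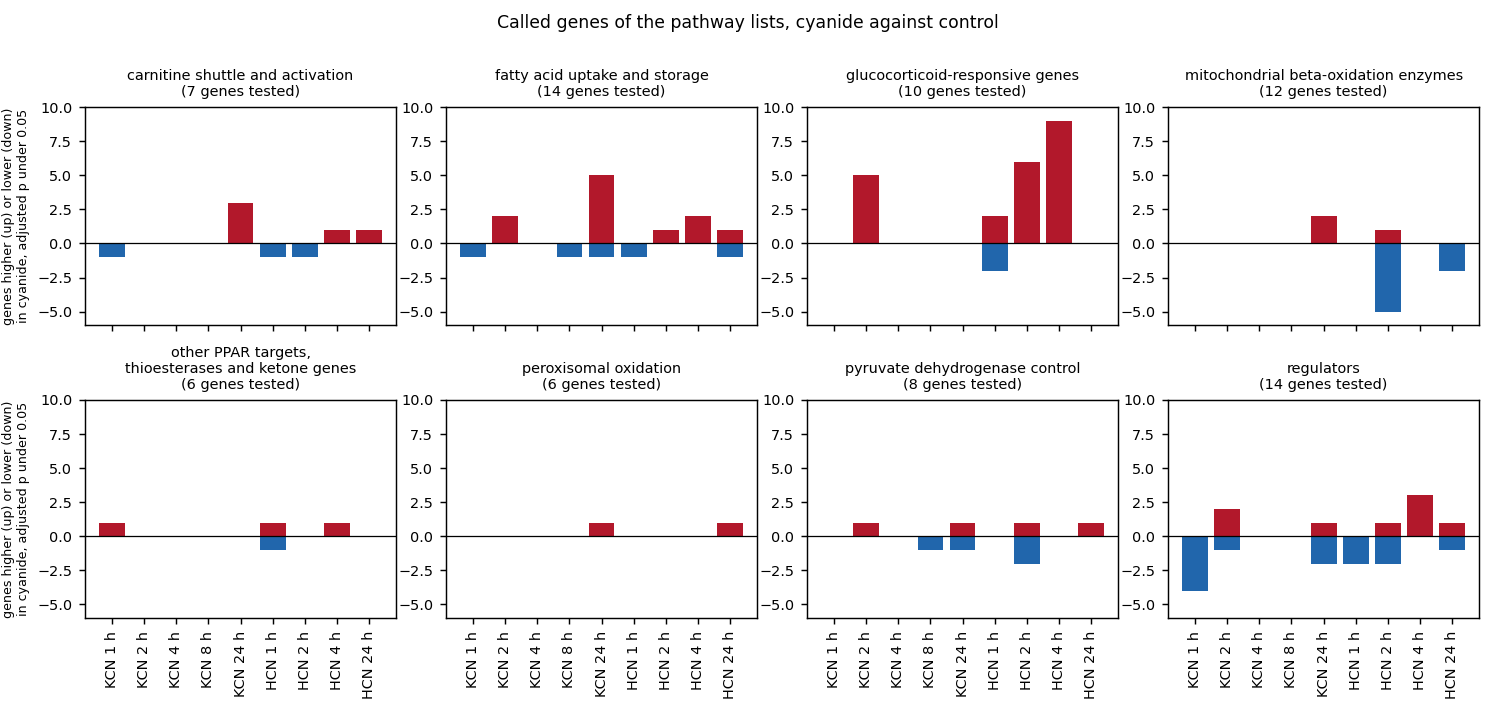
Number of genes of each of 8 lists that were higher (upward bars, red) or lower (downward bars, blue) in cyanide than in control hearts at an adjusted p under 0.05, in 5 KCN and 4 HCN comparisons. Glucocorticoid-responsive genes have the tallest bars, 9 of 10 at HCN 4 h, and the 12 beta-oxidation enzymes have 5 lower at HCN 2 h and none called at HCN 4 h.

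Hearts of the same group also differed from each other in these genes together. After the group mean was taken from each array, the 28 pairs of the 8 members were correlated over the 69 arrays, a comparison chosen after the values were seen, with p from 100000 permutations of arrays within groups. Of the 28, 14 had an adjusted p under 0.05. The share among pairs of other tested probe sets was not computed, so the count is not shown to be particular to these members. Acot2 and Ucp3 had Pearson's r = 0.73 and Spearman's rho = 0.67, Acot2 and Pdk4 had r = 0.63 and rho = 0.63, in each case with p = 1e-05, the smallest these permutations can give (adjusted p = 0.00014). Pdk4 and Ucp3 had r = 0.62 (p = 3e-05, adjusted p = 0.00028) and rho = 0.58 (p = 5e-05, adjusted p = 0.00035). Without the 2 arrays farthest from the median of the gene named first the 3 values of r were 0.65, 0.57 and 0.58. Within the inhalation arm they were 0.79, 0.85 and 0.74, and within the injection arm 0.67, 0.38 and 0.47. Angptl4 correlated with Pdk4 at r = 0.53 (permutation p = 0.00027, adjusted p = 0.00098) and rho = 0.47 (p = 0.00105, adjusted p = 0.0042), with r = 0.48 without the 2 farthest arrays. Since these genes shared arrays, signal strength, RNA quality and tissue content of an array are common to all pairs. At 1 h the array labelled replicate 2 was the highest for Acot2, Pdk4 and Ucp3 in all 4 groups. Permuting arrays within groups does not remove such shared sources, and their part in the correlations was not tested.

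**Figure D5:**
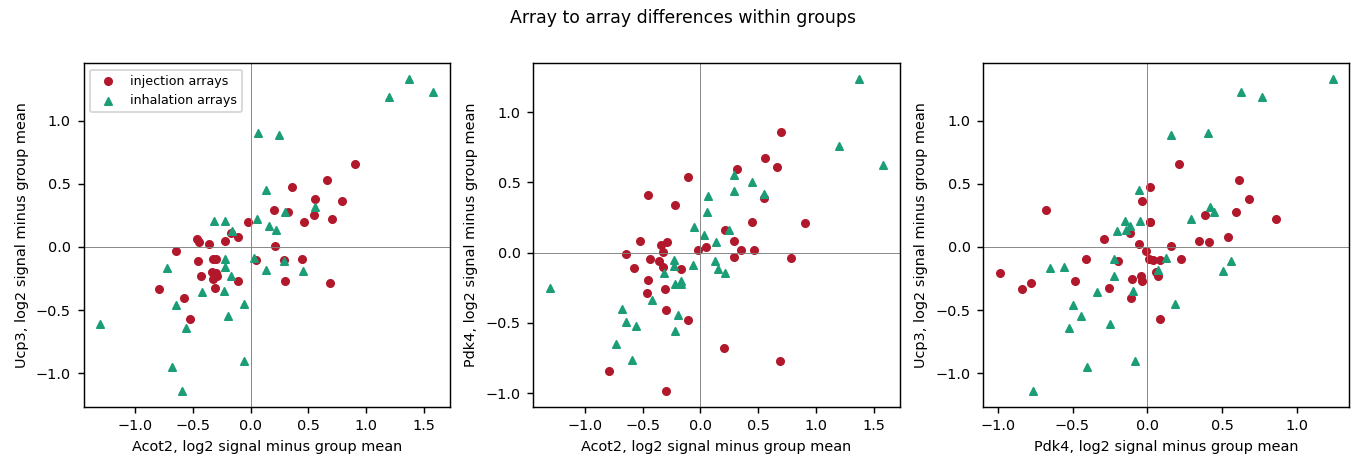
Each point is an array, placed by its log2 signal minus its group mean, for Acot2 and Ucp3 (left), Acot2 and Pdk4 (middle) and Pdk4 and Ucp3 (right), with injection arrays as circles and inhalation arrays as triangles. Arrays high in a gene of a pair tend to be high in the other, with r of 0.73, 0.63 and 0.62 over 69 arrays.

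The genes whose group means followed a member most closely were found over 18 groups, each centred on its route, among 4071 probe sets with a span of at least 1 log2 unit, and are given as a description. For Pdk4 they were Slc25a33 (r = 0.95), Ms4a6b (0.92) and Tlr4 (0.91). For Cpt1b they were Ap2a2 (0.96), Trpc4ap (0.94) and Mknk2 (0.94). For Angptl4 they were Litaf (0.86), Pim3 (0.84) and Dbn1 (0.83). For Ucp3 they were Il6ra (0.75), Osmr (0.73) and Gpr146 (0.71), but the r of Il6ra and Osmr was 0.09 and -0.09 within the injection arm. For Acot2 they were Hsd17b11 (0.85), Elovl1 (0.84) and Car4 (0.83), for Acadl Cbll1, Ikzf5 and Vapb (0.82 to 0.81), for Cd36 Pnrc2, Gas5 and Oxct1 (0.80 to 0.72), and for Acadm Zfand1, Cd28 and Pgap2 (0.78 to 0.76).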

How the data were processed

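The 69 heart RNA samples were labelled from 100 ng of total RNA each, per the labels' protocols, and hybridised to 1 array each. The deposited values are log2 signals, 1 per probe set and array. MAS5 is named per the submitters' processing notes, with its version and its role not given in the sources used here. Because the injection and inhalation sets have different upper ranges, they were taken as normalized separately. Probe sets were named through the platform annotation: 28898 had 1 symbol, 551 several and 15588 none, and 104 were control probe sets.

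A probe set was tested if its highest group mean exceeded 3.23 (the median group mean over the table), as 26755 of 45141 did. limma 3.58.1 in R 4.3.3 was fitted with 1 mean per group for 18 groups in all (51 residual degrees of freedom) with eBayes and a trend, with Benjamini-Hochberg adjustment per comparison. Intervals are 95%. All adjusted p in the text come from this model unless a permutation, an alternative setting or a left-out array is named. The number of arrays limits the precision. Correlations and figures used Python 3.11.15 with scipy 1.17.1 and matplotlib 3.10.9.

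Members and lists were chosen with earlier results of these data known. All members are described, each by its probe set of highest mean, and other probe sets where they were called or disagreed. In each list at most 5 called genes per comparison, by lowest p, are named, and the 3 genes with the highest correlation to each member. Alternatives covered normalization, filter, model, probe set choice, covariates and each array left out.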

Additional observations from a re-analysis of the deposited data

Results flagged for a closer look

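Of 120 groups of 4 arrays examined over the member probe sets, 3 held an array far from the other 3 by Dixon's test, which chance does in about 1 in 20 groups. They were Pdk4 in HCN 1 h replicate 2, at 12.02 against 10.26 to 10.56 in the other HCN 1 h hearts, Acadl in air 4 h replicate 4, at 12.56, and Cd36 in air 4 h replicate 1, at 12.13.

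The effect of HCN differed between its 4 times for Pdk4 (F test of limma, adjusted p = 0.000497), Acadl (adjusted p = 0.00284) and Ucp3 (adjusted p = 0.0124), 3 of 8 members against 27.3% of all tested probe sets. The effect of KCN differed between its 5 times for Acadm (adjusted p = 0.0106) and Cpt1b (adjusted p = 0.0162), 2 of 8 against 16.4%. At 24 h the HCN effect minus the KCN effect was -0.96 for Cpt1b and 0.27 for Cd36, 2 of 8 against 18.8%.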

How the results depend on the processing

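Counts of called members were compared over 14 alternatives and 1 setting chosen after the data were seen. Of these counts 191 stayed within 1.5 times the reported one and 32 did not, as follows. At KCN 8 h the count of 1 became 0 with quantile normalization, without the trend, with arrays of the route only, with only the groups compared and with a 1.5-fold minimum. At KCN 24 h 2 became 1 with the 1.5-fold minimum and with the actin ratio or the adipocyte markers as a covariate. At HCN 1 h 1 became 0 with only the groups compared, the 1.5-fold minimum or the median over probe sets. At HCN 2 h 1 became 2 with the stricter filter, the route only, the median over probe sets or the high-actin arrays left out together, a setting chosen after seeing the data. At HCN 24 h 1 became 3 with only the groups compared, 2 with the median over probe sets and 0 with the 1.5-fold minimum or the actin ratio. The route difference at 24 h had 2 calls, but 1 with no filter, no trend, the 1.5-fold minimum, the median over probe sets or the actin ratio, 4 with the stricter filter or the replicate block and 5 with only the groups compared. Air hearts over time had 2 in place of 1 with the stricter filter or the route only and 3 with the median over probe sets, and the KCN effect between times had 1 in place of 2 without the trend or with the route only. With the median over probe sets Acadl at HCN 1 h turned from -0.17 to 0.00204 and the Cd36 route difference at 24 h from 0.27 to -0.037, where a dim or disagreeing probe set enters. The cause of the other changes was not tested. Among values of single members, 1678 stayed called or uncalled, with uncalled changes among them moving by less than 1 SE. Another 35 lost a call, 27 gained one, 42 moved by more without one and 2 turned direction.

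With 1 array left out, counts ran from 0 to 1 at KCN 8 h and in air hearts over time, from 0 to 2 at KCN 24 h, from 1 to 2 at HCN 1 h, from 1 to 3 at HCN 2 h and in the route difference at 24 h, from 2 to 3 at HCN 4 h and in the HCN effect between times, and from 5 to 6 in saline hearts over time. The replicate numbers were not used to pair the arrays in the main model. Over 34 same-numbered pairs of cyanide and control arrays the correlation ran from -0.14 to 0.32, with 9 above 0.1. Whether same-numbered arrays belong together was not tested. The replicate block added Angptl4 (-1.67, adjusted p = 0.0454 by limma) and Ucp3 (-1.29, adjusted p = 0.0426) to the route difference at 24 h.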

Other observations

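In all 4 groups taken at 1 h (KCN, saline, HCN and air), the array labelled replicate 2 had the highest Pdk4, the highest Ucp3 and the highest Acot2 of its group. This was seen in the values and not tested.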
